A study of Mus musculus with 21 samples.

Results

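The clustered histone genes encode the core histones H2A, H2B, H3 and H4 and the linker histone H1 that package newly made DNA. They were taken as all protein-coding genes whose symbol in the GENCODE vM21 annotation starts with Hist1h, Hist2h, Hist3h or Hist4h, which gave 67 of the 54232 genes counted. In dividing cells their mRNAs are made in S phase and, unlike other mRNAs, end just after a conserved stem-loop instead of in a poly(A) tail. The stem-loop is bound by SLBP, the protein that carries these mRNAs through processing, translation and decay, and growing oocytes store histone mRNA and SLBP for use after fertilization. A library primed on poly(A) RNA therefore has no direct handle on the stem-loop form, and the values below describe only what such libraries held.

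Poly(A) RNA had been sequenced in 21 libraries of 3 fully grown mouse oocytes each, at the germinal vesicle stage (arrested in meiotic prophase, before nuclear breakdown), from gonadotropin-primed females of 3 to 4 months on a C57BL/6 background. The control was *Kif11* wt/fl without Cre, with a wild-type and a floxed allele of *Kif11*, which encodes a spindle kinesin (4 libraries). The other groups were wt/fl Spo11-Cre, which loses the floxed copy (5 libraries), fl/del, which carries a floxed and a constitutively deleted copy (4), fl/del Spo11-Cre, which loses both (4), and 2 groups with both copies floxed, fl/fl with Gdf9-Cre (2) and fl/fl with Zp3-Cre (2). Spo11-Cre is active from early meiotic prophase, and Gdf9-Cre and Zp3-Cre are driven by oocyte promoters. A mouse could give 1 or 2 libraries, so libraries of a group were not all separate animals and p-values measure the spread between libraries. Both fl/fl groups differ from the others in alleles and driver together, so genotype, driver and library set cannot be told apart for them.

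Libraries held 7205010 to 18454549 counts in total, lowest in fl/del replicate 3, and levels are given as CPM, the count per 1000000 counts of the library. A count of 0 allows a level of up to 0.163 to 0.416 CPM, depending on the library (3 counts, counting error only, since PCR reads without molecular identifiers are not independent molecules). All-exon counts of the found members were 1.92 times those deposited with *Kif11* reduced to exon 22 (median), and in the latter 3 counts are 0.317 to 0.813 CPM. If a fragment gave 2 all-exon counts, the limit for a count of 0 would be nearer to these values, and a count of 10 would stand for fewer fragments. *Kif11* itself was at 34.5 ± 8.46 CPM in wt/fl (SD, n = 4), 24.6 ± 5.04 in wt/fl Spo11-Cre (n = 5), 11.9 ± 3.06 in fl/del (n = 4), 1.78 ± 0.685 in fl/del Spo11-Cre (n = 4), 5.003 ± 0.153 with Gdf9-Cre (n = 2) and 6.11 ± 2.60 with Zp3-Cre (n = 2). All 12 oocyte markers had counts in every library. The 18 follicle cell markers summed to between 120.9 and 184.9 CPM, most of it in *Cyp19a1*, *Bmpr2* and *Nr5a2*, and *Foxl2*, *Ptx3* and *Tnfaip6* were at 0 in all 21 libraries.

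A gene was called found where its count was at least 10 in at least 11 of the 21 libraries, trace where any library had a count, and without counts where all 21 were at 0. By these limits 18 clustered histone genes were found, 34 were at trace level and 15 had no counts. A library held counts for 26 to 38 of the 67 genes. The trace genes had mean levels between 0.00286 and 0.839 CPM and together made up 3.43% of the summed level. Since a library pools oocytes, fewer oocytes with an mRNA and less of it per oocyte cannot be told apart.

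The 3′ ends are shown first, since the stem-loop is what sets most of these mRNAs apart from polyadenylated ones. The stem-loop was searched as GG, any 2 bases, CTTTT, any base, AG, any 2 bases and CC on the sense strand of the annotated transcripts and was found in 44 of the 67 genes, 25 to 62 bases after the coding end with a median of 35. Among the transcripts of all other protein-coding genes 52 of 58725 held these letters, or 0.0885%. The version in 26 of the 44 genes was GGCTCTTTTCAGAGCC. The elements of the members that hold one among the 12 highest per kb, and that of *Hist1h4d*, chosen after its values were seen, are printed from the GENCODE vM21 transcripts (GRCm38), with the stem-loop in capitals and 5 bases on each side:
Hist1h4h (chr13:23531453-23531478, + strand): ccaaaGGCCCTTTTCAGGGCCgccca
Hist1h2bk (chr13:22036295-22036320, + strand): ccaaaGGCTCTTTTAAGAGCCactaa
Hist1h4c (chr13:23698084-23698109, - strand): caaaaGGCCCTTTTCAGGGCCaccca
Hist3h2ba (chr11:58949344-58949369, + strand): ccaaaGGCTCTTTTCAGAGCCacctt
Hist1h2bj (chr13:22043633-22043658, + strand): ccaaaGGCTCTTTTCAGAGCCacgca
Hist1h3f (chr13:23544927-23544952, + strand): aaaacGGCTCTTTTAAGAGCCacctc
Hist1h4d (chr13:23581945-23581970, + strand): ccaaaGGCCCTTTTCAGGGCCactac
The annotated transcript went on past the element by 46 bases in *Hist1h4h*, 30 in *Hist1h2bk* and 23 in *Hist1h2bj*. It went on by 169 bases in *Hist3h2ba*, 365 in *Hist1h3f*, 454 in *Hist1h4c* and 770 in *Hist1h4d*.

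*Hist1h2bc*, which encodes an H2B, stood apart in its level and was the only 1 of the 18 found genes annotated as spliced. Its only annotated transcript is spliced, from exon 1 (chr13:23684199-23684621, 423 bases) across an intron of 7554 bases to exon 2 (chr13:23692176-23692908, 733 bases). Exon 1 ends 9 bases after the stop codon, closer than any of the 44 elements lies to its coding end, and the stem-loop letters are not in the spliced transcript. The junction is printed with the stop codon in capitals, followed by the last 9 bases of exon 1 and the first 9 of exon 2:
Hist1h2bc (chr13:23684601-23684621 joined to chr13:23692176-23692184, + strand): agctccaagTGAtcctgccaagaggagcag
The polyadenylation signal AATAAA was not in the last 60 bases of this transcript. Of all other protein-coding transcripts 41.2% had it there, as did 5 of the 18 found, 7 of the 34 trace and 3 of the 15 genes without counts. Spliced transcripts are also annotated for 4 trace genes. Of these, *Hist1h2bq* and *Hist1h2br* hold no stem-loop letters either and had means of 0.199 and 0.0119 CPM. In them 94.8% and 86.4% of 100-base stretches also occur in another gene, so these levels are uncertain.

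Sorted by their 3′ ends, 12 of the 18 found genes held the stem-loop, as did 26 of the 34 trace genes and 6 of the 15 genes without counts. The annotation continued for at least 100 bases past it, a limit chosen after the values were seen, in 9 of those 12 found genes, in 11 of the 26 trace genes and in 2 of the 6 genes without counts. The median length past the element was 409.5 bases in found genes and 48.5 in trace genes. The categories rest on raw counts, which a longer annotated transcript can raise, so length and category are not independent. The part of annotated length in this difference was not tested. For 13 genes, among them the found *Hist1h2aa* and *Hist1h2ba*, the annotated transcript stopped at the stop codon, so reads further downstream would not have been assigned to them. A stem-loop could not be detected in these 13 either, which were 2 of the found, 5 of the trace and 6 of the genes without counts. The shares of genes with the stem-loop therefore depend on how far each gene was annotated.

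*Hist1h2bc* was the most abundant clustered histone gene in every library. Its level was 91.6, 96.3, 125 and 130 CPM in the wt/fl libraries, 89.9, 105, 123, 104 and 118 in wt/fl Spo11-Cre, 112, 113, 117 and 139 in fl/del, and 114, 121, 123 and 109 where fl/del was joined with Spo11-Cre. The level was 134 and 153 CPM with Gdf9-Cre, and the Zp3-Cre libraries had 174 and 125. The 4 groups of the Spo11-Cre background overlapped throughout, both Gdf9-Cre libraries lay above the highest wt/fl library, and a single Zp3-Cre library did. The gene held 54.1% to 72.2% of the summed level of all clustered histone genes in a library (63.6% ± 5.14, SD, n = 21). Over 21 libraries it had 33924 counts, and its SD was 16.5% of its mean. The median of this measure was 13.4% for the 747 genes with a mean between 100 and 150 CPM.

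Per kb of merged exons, the scale on which genes can be compared, *Hist1h2bc* was at 103.7 ± 17.1 CPM per kb (SD, n = 21). *Hist1h2aa*, which encodes the germline H2A variant TH2A, was next with 20.9 ± 6.15 CPM per kb, and its highest library (38.1) lay below the lowest of *Hist1h2bc* (77.8). *Hist1h2ba*, which encodes its H2B partner TH2B and lies beside it on the opposite strand (chr13:23933773-23934156 and chr13:23934462-23934851), was at 12.8 ± 7.42. The H4 gene *Hist1h4h* (12.8 ± 5.08), the H2B gene *Hist1h2bk* (12.0 ± 5.27) and the linker histone H1 gene *Hist1h1a* (9.31 ± 2.84) could not be ordered beyond that spread. They were followed by *Hist1h4c* (6.01 ± 2.36), the H3 gene *Hist1h3g* (5.49 ± 2.36), the H2B gene *Hist3h2ba* (4.97 ± 2.71), *Hist1h4a* (4.84 ± 2.69), *Hist1h2bj* (3.76 ± 1.46) and *Hist1h3f* (2.50 ± 0.913). The other found genes were *Hist1h4i*, *Hist1h4d*, *Hist4h4*, *Hist1h2bh*, *Hist3h2a* and *Hist1h1c*, between 0.539 and 2.46 CPM per kb. From *Hist1h2aa* down, the library ranges of neighbours in this order overlapped.

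**Figure D1:**
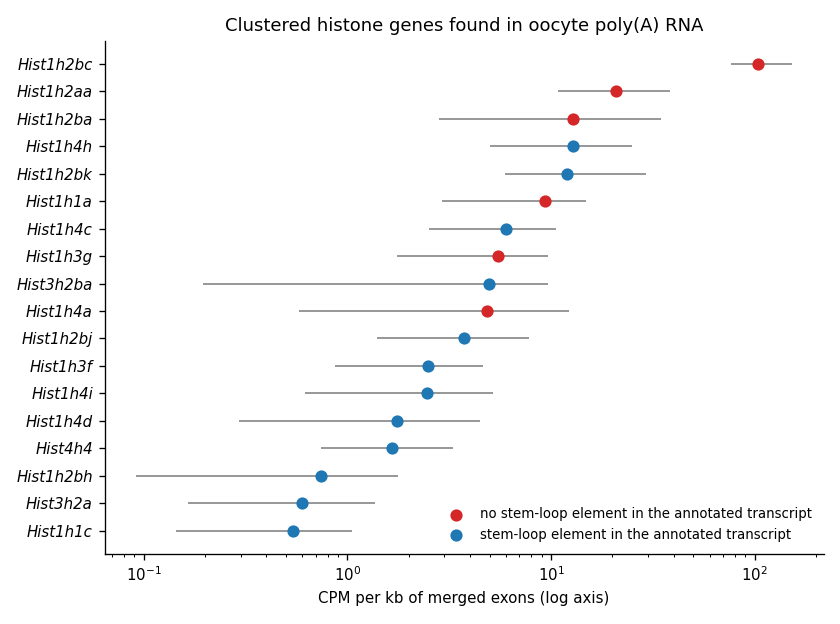
Mean CPM per kb of merged exons over 21 libraries (points, log axis) of the 18 found clustered histone genes, with the range of the libraries above 0 as a grey line. Hist1h2bc (103.7) lies clear of the rest, and red points mark the 6 genes whose annotated transcript holds no stem-loop element.

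By histone, H2B genes held 73.5% of the summed level, H4 genes 12.0%, H2A genes 5.60%, H1 genes 4.89% and H3 genes 3.95%. With *Hist1h2bc* left out, H4 genes held 33.0% of the remainder and H2B genes 27.2%. Found were 2 of 6 H1, 2 of 18 H2A, 6 of 18 H2B, 2 of 12 H3 and 6 of 13 H4 genes. By cluster, 15 of the 54 Hist1 genes on chromosome 13 were found, and they and the rest of that cluster held 94.8% of the summed level. Both Hist3 genes on chromosome 11 and the single Hist4 gene on chromosome 6 were found, while none of the 10 Hist2 genes on chromosome 3 was, and 8 of these had no counts. Among those without counts, *Hist2h2aa1*, *Hist2h2aa2*, *Hist2h2bb*, *Hist2h3b* and *Hist2h3c1* are overlapped by other annotated genes along 100% of their exon bases. Their counts of 0 therefore do not show that the mRNA was missing.

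How far a count of 0 can be read as a missing mRNA depends on how uniquely a read can be assigned, because only uniquely mapped reads were counted. Of the 15 genes without counts, 12 have exon bases that another annotated gene overlaps, 5 of them along their whole length. The same held for 10 of the 34 trace genes and 2 of the 18 found genes. All 18 H2A genes, but 6 of the 49 others, have such an overlap. The share of 100-base stretches that also occur in another gene had a median of 63.6% in genes without counts, 44.4% in trace genes and 14.6% in found genes, and it was 70.8% in *Hist1h2bk*, whose level is uncertain for that reason. Among the other found genes it reached 40.1% in *Hist1h2bj* and 38.5% in *Hist1h4h*, and it was 25.4% in *Hist1h2bc*. Levels per kb were not corrected for it. The levels of *Hist1h2aa* and *Hist3h2a* are uncertain too, since other annotated genes overlap 33.1% and 33.0% of their exon bases. These had the lowest ratios of all-exon to exon 22 table counts among the found members, 1.47 and 1.77. *Hist2h2be* (2620 bases) and *Hist1h4j* (774 bases), named after their values were seen, had no counts with neither an overlap nor more than 19.0% of shared stretches. The part of overlap and shared sequence in the other zeros was not tested.

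**Figure D2:**
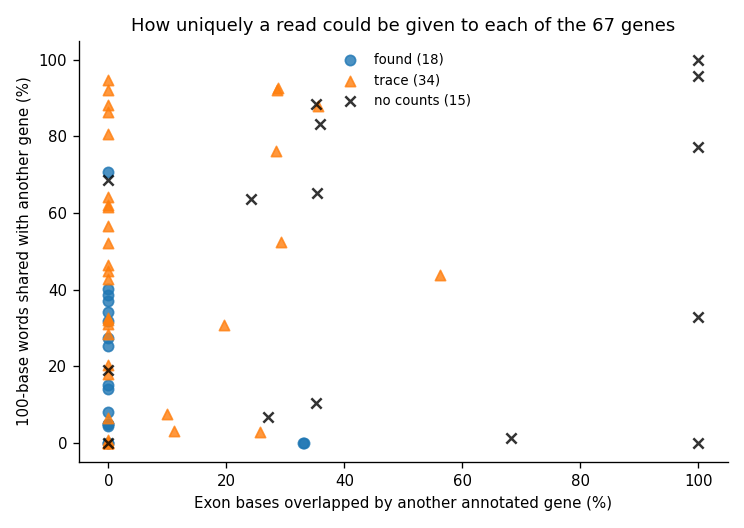
Each of the 67 clustered histone genes by the percent of its exon bases that another annotated gene overlaps (x axis) and the percent of its 100-base stretches that occur in another gene (y axis). Of the 15 genes without counts (crosses) 12 lie right of 0, as do 10 of the 34 trace genes (triangles) and 2 of the 18 found genes (circles).

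The germline pair behaved unlike each other between libraries. *Hist1h2aa* was at 8.82, 5.50, 7.20 and 10.7 CPM in wt/fl, 7.62, 8.51, 8.13, 7.09 and 7.39 in wt/fl Spo11-Cre, 7.10, 6.26, 14.9 and 7.42 in fl/del, 9.03, 9.90, 9.60 and 11.4 when fl/del had Spo11-Cre, 4.28 and 9.14 with Gdf9-Cre, and in the Zp3-Cre libraries 6.67 and 4.52. Each group overlapped wt/fl. *Hist1h2ba* was at 13.2, 1.10, 6.52 and 1.64 CPM in wt/fl, 5.21, 8.12, 3.74, 3.10 and 3.75 in wt/fl Spo11-Cre, 3.26, 3.52, 5.97 and 5.64 in fl/del, 2.77, 10.1, 3.42 and 5.93 when fl/del had Spo11-Cre, 3.16 and 3.59 with Gdf9-Cre, and in the Zp3-Cre libraries 5.90 and 3.66. The lowest and the highest value of this gene were both in wt/fl. Its SD over 21 libraries was 57.9% of its mean against 29.4% for *Hist1h2aa*, and the median over all 4037 genes with a mean between 2 and 10 CPM was 38.2%. The 12 found members in that range had a median of 41.4%.

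**Figure D3:**
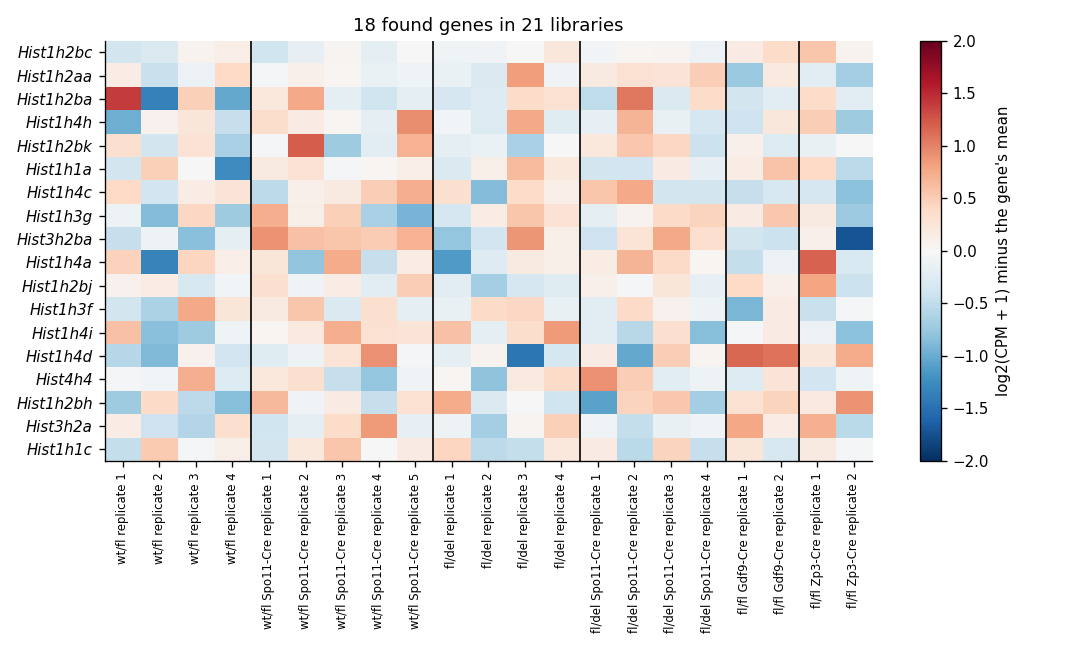
log2(CPM + 1) of the 18 found genes in each of the 21 libraries, as the difference from the gene's mean, with black lines between groups. The row of Hist1h2bc is nearly even, Hist1h2ba swings within wt/fl from 13.2 to 1.10 CPM, and Hist3h2ba is above its mean in all 5 wt/fl Spo11-Cre libraries.

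Summed over all 67 genes, the level was 171.8 ± 21.1 CPM in wt/fl (SD, n = 4), 182.1 ± 13.4 in wt/fl Spo11-Cre (n = 5), 187.0 ± 23.3 in fl/del (n = 4) and 188.8 ± 15.5 when fl/del had Spo11-Cre (n = 4). The sum was 214.0 ± 25.5 CPM with Gdf9-Cre and 213.7 ± 57.3 with Zp3-Cre (n = 2 each). Without *Hist1h2bc* the sums were 61.1 ± 12.4, 74.0 ± 6.997, 66.7 ± 16.01, 71.8 ± 9.17, 70.6 ± 11.6 and 64.1 ± 22.1 CPM in the same order of groups. Every group mean lay within the library range of at least one other group. For the full sum, each fl/fl mean did so only in the other fl/fl group. Both lay above the highest library of the remaining groups, 208.7 CPM in fl/del replicate 4. Single libraries of both fl/fl groups lay below it, at 195.9 CPM with Gdf9-Cre and 173.2 with Zp3-Cre.

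**Figure D4:**
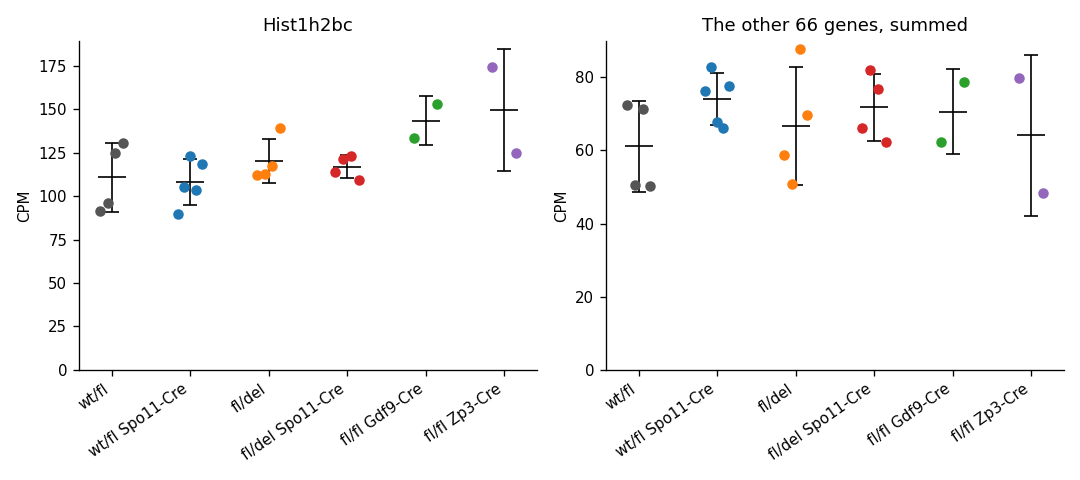
CPM of Hist1h2bc (left) and of the other clustered histone genes summed (right) in each library by group, with the mean and SD as black bars. Hist1h2bc lies between 89.9 and 139 CPM in the Spo11-Cre background and between 125 and 174 CPM in the fl/fl groups, and the sums of the others overlap in all groups.

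Each of the 5 groups was compared with the same wt/fl libraries by edgeR's quasi-likelihood test over all genes with a count in at least 3 libraries, of which 40 were clustered histone genes (18 found and 22 trace). The other 27 could not be tested. No clustered histone gene passed an adjusted p of 0.05 in any comparison, in either direction. The share of all genes that passed was 2.19% in the wt/fl Spo11-Cre comparison, 0.0223% without Cre in fl/del and 0.197% when fl/del had Spo11-Cre. It reached 1.48% under Gdf9-Cre and 2.27% under Zp3-Cre. At an unadjusted p under 0.05 there were 2, 2, 3, 3 and 2 of the 40, in that order, beside 15%, 8.52%, 10.4%, 11.7% and 13.1% of all genes, and DESeq2 called 0 as well, with 2, 0, 1, 1 and 1 at the unadjusted threshold. A p that misses the threshold does not show that the levels were alike.

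For *Hist1h2bc* the intervals were narrow. Its log2 fold change was -0.01 in wt/fl Spo11-Cre (SE 0.11), 0.13 in fl/del (SE 0.11) and 0.07 when fl/del had Spo11-Cre (SE 0.11). Its value was 0.30 with Gdf9-Cre (SE 0.15, edgeR adjusted p = 0.426) and 0.32 with Zp3-Cre (SE 0.15, edgeR adjusted p = 0.341). Both fl/fl values were about 2 SE from 0, and neither passed.

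*Hist3h2ba*, an H2B gene of the small Hist3 cluster, came closest to the threshold. It was at 1.68, 2.44, 1.06 and 2.27 CPM in wt/fl and at 5.86, 4.52, 4.44, 4.26 and 4.96 CPM in wt/fl Spo11-Cre. The groups did not overlap, and the 5 libraries with Cre were the higher, on 59 to 90 counts each against 14 to 31. The log2 fold change was 1.39 (SE 0.44, edgeR adjusted p = 0.0785), and with only these 2 groups in the fit the adjusted p was 0.0437. It was at 1.15, 1.85, 5.83 and 3.03 CPM in fl/del. In fl/del Spo11-Cre its levels were 1.78, 3.45, 5.22 and 3.65, and both groups overlapped wt/fl (log2 fold change 0.92, SE 0.46, edgeR adjusted p = 0.476 for fl/del Spo11-Cre). With Gdf9-Cre it was at 1.86 and 1.74 CPM, and the Zp3-Cre libraries had 2.95 and 0.122. Non-overlapping groups were found for 2 of the 40 members in wt/fl Spo11-Cre (5%), *Hist3h2ba* above and the H1 gene *Hist1h1e* below wt/fl, beside 4.95% of all genes tested. *Hist1h1e* is a trace gene. Its lowest wt/fl library had 0.469 CPM and its highest wt/fl Spo11-Cre library 0.460, on 6 counts each.

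*Hist1h4d*, 1 of the H4 genes, had the lowest p in the Gdf9-Cre comparison. It was at 5.02 and 4.79 CPM with Gdf9-Cre and at 0.840, 0.471, 1.90 and 1.09 CPM in wt/fl, a log2 fold change of 2.10 (SE 0.73, edgeR adjusted p = 0.159). With Zp3-Cre it was at 2.18 and 3.54 CPM, also above wt/fl, with a log2 fold change of 1.30 (SE 0.75, edgeR adjusted p = 0.473). Among the other groups wt/fl Spo11-Cre replicate 4 reached 4.13 CPM and fl/del replicate 3 was at 0. A fit with the replicate number as a block, although the numbers do not pair these libraries, gave *Hist1h4d* an adjusted p of 0.0488 with Gdf9-Cre. The groups did not overlap for 6 of the 40 members with Gdf9-Cre, all higher, beside 18.0% of all genes tested, and for 4 with Zp3-Cre, all higher, beside 16.8%. For fl/del the number was 2 beside 2.99%, and for fl/del Spo11-Cre 0 beside 4.18%.

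**Figure D5:**
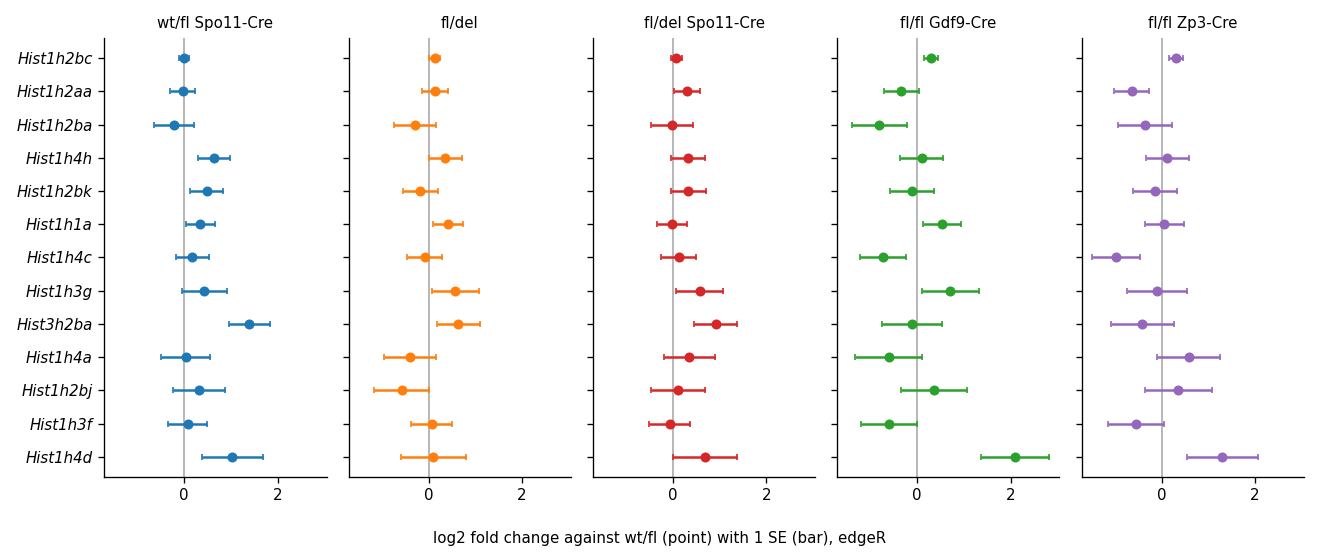
log2 fold change against wt/fl (points) with 1 SE (bars) from edgeR for the 12 most abundant clustered histone genes per kb and Hist1h4d, in 5 comparisons that share the wt/fl libraries. Hist3h2ba in wt/fl Spo11-Cre (1.39) and Hist1h4d with Gdf9-Cre (2.10) lie farthest from 0, and no value passed the adjusted threshold.

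The median log2 fold change of the 18 found genes was 0.33 in wt/fl Spo11-Cre, with 14 of 18 above 0, beside a median of 0.03 over all genes tested. In fl/del it was 0.12 (11 of 18 above 0, all genes 0.00), in fl/del Spo11-Cre 0.18 (12 of 18, all genes 0.01), with Gdf9-Cre -0.01 (9 of 18, all genes 0.00) and with Zp3-Cre -0.11 (8 of 18, all genes 0.00). In wt/fl Spo11-Cre single found genes ran from -0.28 for *Hist4h4* to 1.39 for *Hist3h2ba*. The effect of Spo11-Cre in fl/del was set against that in wt/fl by an interaction in the same edgeR fit, and 0 of 40 members passed, beside 0.103% of all genes tested. At an unadjusted p under 0.05 there were 4 of the 40 (10%), beside 10.3% of all genes.

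The oocyte's replication-independent histones and the factors that handle histone mRNA were measured on the same scale. *H1foo*, the oocyte linker histone, was at 7430 CPM per kb, *H3f3b* and *H3f3a*, which encode H3.3, were at 496.2 and 84.9. *Hist1h2bc* (103.7) was therefore between both H3.3 genes, and the other 17 found genes were below *H3f3a*. *Slbp* was at 235.0 CPM per kb, *Lsm10* of the U7 particle that cuts histone pre-mRNA at 498.3 and the cap-binding gene *Ncbp2* at 51.2. Among histone chaperones the oocyte nucleoplasmin gene *Npm2* was at 1347, *Rbbp7* at 895.8 and *Npm1* at 223.6. *Slbp* was at 1458 ± 154 CPM in wt/fl (SD, n = 4) and passed in no comparison, with log2 fold changes between -0.19 (Zp3-Cre) and 0.06 (Gdf9-Cre).

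Of the 25 genes of histone mRNA processing that were tested, 0 passed in the 3 groups of the Spo11-Cre background. With Gdf9-Cre 2 rose, and 1 rose and 1 fell with Zp3-Cre. Of all genes tested 1.48% passed with Gdf9-Cre and 2.27% with Zp3-Cre. In wt/fl Spo11-Cre, fl/del and fl/del Spo11-Cre 2.19%, 0.0223% and 0.197% of all genes tested passed. *Eri1*, an exonuclease that trims histone mRNA ends, rose with Gdf9-Cre (log2 fold change 0.79, SE 0.18, edgeR adjusted p = 0.00693) and with Zp3-Cre (1.05, SE 0.18, edgeR adjusted p = 7.49e-05). *Snrpd3*, an Sm protein shared by U7 and spliceosomal particles, rose with Gdf9-Cre by 0.67, and *Casp8ap2* (FLASH) fell by 0.66 with Zp3-Cre. The Gdf9-Cre calls of *Eri1* and *Snrpd3* were lost without Gdf9-Cre replicate 2 (edgeR adjusted p = 0.790 and 0.360), and that of *Snrpd3* also with libraries of a shared name prefix summed (0.0552).

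Of 24 histone chaperones, 1 rose and 2 fell in wt/fl Spo11-Cre, and 0 passed in fl/del, fl/del Spo11-Cre and Gdf9-Cre. Under Zp3-Cre 1 rose and 4 fell. Beside this 2.19%, 0.0223%, 0.197%, 1.48% and 2.27% of all genes tested passed, in the same order of groups. With Zp3-Cre *Supt16*, a FACT subunit, fell by 1.61 (SE 0.17, edgeR adjusted p = 6.19e-10) and *Atrx*, an H3.3 loader, fell by 0.67. *Cabin1* and *Chaf1a* fell there too and *Anp32e* rose, and these calls were lost in 2, 1 and 1 alternative fits. In wt/fl Spo11-Cre *Asf1b* fell by 0.32 and *Chaf1a* by 0.41, and *Nap1l4* rose by 0.34. The call of *Asf1b* was lost without wt/fl replicate 1 or 2 or wt/fl Spo11-Cre replicate 2 or 4 (edgeR adjusted p from 0.0549 to 0.0672). The wt/fl Spo11-Cre call of *Chaf1a* was lost without wt/fl replicate 2 or wt/fl Spo11-Cre replicate 3, 4 or 5 (edgeR adjusted p from 0.0519 to 0.235). That of *Nap1l4* was lost without wt/fl replicate 1, 2 or 3 or wt/fl Spo11-Cre replicate 3 or 4 (edgeR adjusted p from 0.0610 to 0.139). All 3 calls were lost in the fit of all 21 libraries (edgeR adjusted p = 0.0720, 0.0674 and 0.114 in that order), those of *Asf1b* and *Nap1l4* also with name prefixes summed (0.0704 and 0.0740) and that of *Chaf1a* also with filterByExpr (0.0523). Of 14 replication-independent histones tested, 2 fell with Gdf9-Cre and 1 with Zp3-Cre, and of 13 tested in the Spo11-Cre background 0 passed. The shares of all genes tested were those given above for the chaperones. *H1foo* fell by 0.39 with Gdf9-Cre and by 0.43 with Zp3-Cre, from 9188 ± 228 CPM in wt/fl (SD, n = 4), and *H2afx* fell by 0.64 with Gdf9-Cre. Without Zp3-Cre replicate 1 the Zp3-Cre calls of *H1foo* and *Casp8ap2* were lost (edgeR adjusted p = 0.143 and 0.334), and the Gdf9-Cre call of *H1foo* was lost without any of the wt/fl libraries or without Gdf9-Cre replicate 1 (edgeR adjusted p from 0.0501 to 0.478). The call of *H2afx* was lost without wt/fl replicate 4 or Gdf9-Cre replicate 2 (edgeR adjusted p = 0.0652 and 0.334). With name prefixes summed the calls of *H1foo* (edgeR adjusted p = 0.162 with Gdf9-Cre and 0.0676 with Zp3-Cre) and *H2afx* (0.0562) were lost, and with only the compared groups that of *H1foo* with Zp3-Cre (0.0889).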

How the data were processed

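Libraries were made by the authors with SMART-seq v4, which primes cDNA on poly(A) RNA, and Nextera XT. Trimming was done with fastp, alignment to GRCm38 with HISAT2 2.2.1 and counting of uniquely mapped reads over each gene by featureCounts 2.0.3, as the submitters' notes and the methods give. The deposited counts are whole numbers without normalization. The all-exon counts were the main table, with 54232 genes, of which 54165 had a symbol in GENCODE vM21. Counts deposited with *Kif11* reduced to exon 22 were an alternative. All-exon counts of the found members were 1.92 times these (median), and how read pairs and strand were counted is not given in the sources used here, so reads from a gene and an overlapping antisense gene may not be told apart. TPM values, computed by the authors by a method not given in the sources used here, were an alternative scale.

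CPM was the count per 1000000 counts of the library. Comparisons used edgeR 4.0.16 in R 4.3.3 (estimateDisp, glmQLFit and glmQLFTest, TMM, a count above 0 required in 3 libraries or more, Benjamini-Hochberg over all genes tested, adjusted p under 0.05). The Spo11-Cre background was fitted with its 17 libraries and the fl/fl groups with all 21. Alternatives were RLE factors, no filter, filterByExpr, only the compared groups, all 21 libraries, the exon 22 counts, a replicate block, sums of libraries sharing a name prefix, DESeq2 1.42.0 and leaving out each library. Levels per kb used merged exons of GENCODE vM21. Stem-loop letters were searched in the annotated transcripts, and the sequence past the annotated ends was not analysed here. The code was tested on simulated data. Between replicates the mean chi-square per gene was at least 5.27, so none agreed within sampling noise.

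Members and gene lists were chosen with earlier results of these data known. Named are the 12 members with the highest CPM per kb, members past the threshold (none), *Kif11*, *Slbp* and *H1foo*, and from lists of replication-independent histones, histone mRNA processing and chaperones the 3 highest per kb and up to 4 past the threshold per comparison. Of the chaperones, all that passed with Zp3-Cre are named (1 rose and 4 fell), beyond that limit. *Hist1h4d*, *Hist1h1e*, *Hist4h4* and the remaining found genes were named after their values were seen. Of 27 symbols of histone mRNA processing, 25 matched. The lists' other markers were oocyte (12), follicle cell (18) and cycling cell (6) genes, and the cycling cell genes summed to between 1913 and 2305 CPM. By gene, the means were 1314 CPM for *Birc5*, 271 for *Ccnb2*, 243 for *Ube2c*, 152 for *Cdc20*, 86.8 for *Mki67* and 52.6 for *Top2a*. Files of the authors' other *Kif11* counts were not used here.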

Additional observations from a re-analysis of the deposited data

Results flagged for a closer look

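In groups of 4 or 5 libraries, 3 of 52 group values of the 12 most abundant members and of the summed level had a library whose gap to the others exceeded Dixon's 95% critical value, where chance gives about 1 in 20. *Hist1h2aa* was at 14.9 CPM in fl/del replicate 3, against 6.26 to 7.42 in the other fl/del libraries. *Hist1h4h* was at 10.3 CPM in the same library, against 4.47 to 5.37. That library has the lowest total count, 7205010, and the part of depth in these values was not tested. *Hist1h4h* was also at 9.68 CPM in fl/del Spo11-Cre replicate 2, against 4.26 to 4.98 in the others of that group. The difference between the Spo11-Cre effect in fl/del and that in wt/fl passed the adjusted threshold in 0 of 40 members tested by edgeR (lowest adjusted p = 0.391, *Hist1h1e*), beside 0.103% of all genes tested. At an unadjusted p under 0.05 there were 4 of the 40, beside 10.3% of all genes.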

How the results depend on the processing

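The count of clustered histone genes called was 0 in each direction and comparison under nearly all alternatives, the fits without single libraries included. It was 1 in 2 cases, with only the compared groups for wt/fl Spo11-Cre (*Hist3h2ba*, log2 fold change 1.39, adjusted p = 0.0437) and with the replicate block for Gdf9-Cre (*Hist1h4d*, log2 fold change 2.44, adjusted p = 0.0488). The cause was not tested. For *Hist3h2ba* the adjusted p ran from 0.0437 to 0.168 over the other edgeR fits and from 0.104 to 0.181 without single libraries, and for *Hist1h4d* from 0.0488 to 0.155 and from 0.107 to 0.506. Libraries that share a replicate number were not paired. Over 42 pairs of same-numbered libraries the correlation of deviations from the group means ran from -0.17 to 0.12, and 3 of 21 libraries correlated best with their own number. The replicate block changed no other call of a clustered histone gene.

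*Hist1h2bc* changed sign in wt/fl Spo11-Cre, where its log2 fold change was -0.011, to 0.012 with libraries that share a name prefix summed. Without single libraries it ran from -0.094 to 0.080, turning to 0.059 and 0.080 without wt/fl replicate 3 and 4 and to 0.053 and 0.0085 without wt/fl Spo11-Cre replicate 1 and 4. In fl/del Spo11-Cre it ran from -0.0093, without wt/fl replicate 1, to 0.17. Of 65 fold changes of 13 named members, 33 changed sign under some alternative and none of those was called. The 15 called fold changes of other genes kept their direction in all 222 refits and lost the call in 39.

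The number of found genes was 18, and it was 10 when a count of at least 10 was asked of all 21 libraries. It was 27 with at least 3 libraries, 17 with a CPM of at least 1 and 15 in the counts made with *Kif11* exon 22. In the authors' TPM, another scale, the summed level was 478.6 in the wt/fl control and 512.2 for fl/del, 508.8 and 525.2 for the same genotypes with Spo11-Cre, 555.2 with Gdf9-Cre and 561.7 with Zp3-Cre. The other scalings moved no group's sum by more than the SD between libraries. Depth limits the members other than *Hist1h2bc*, whose means were 8.15 CPM or less. DESeq2 gave an adjusted p to 3 to 13 of the members only.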
